A study of Mus musculus with 6 samples.

Results

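The tendon genes of the developing mouse rib cage were followed across 6 RNA libraries. The 9 symbols taken were Scx, Mkx, Tnmd, Thbs4, Thbs2, Kera2, Fibin, Egr1 and Egr2, matched by symbol to the gene IDs of the deposited count table. Of these, 8 matched among 55487 gene IDs, and all 8 were among the 26596 genes tested. Kera2 matched no gene ID and has no value here. The gene Kera, which codes for keratocan, belongs to a wider list of tendon matrix genes and is described with it.

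Rib cages were taken from embryos at 16.5 days post coitum (dpc), cleaned of connective tissue and frozen, and polyadenylated RNA of the whole tissue was sequenced. The 3 control embryos (E420, E434 and E435) are labelled wild type, and the study's methods describe controls as littermates without the cre transgene, from a cross that carries floxed and deleted alleles. The 3 mutant embryos (E423, E433 and E440) are labelled Col2-cre;Foxc1-/-;Foxc2-/-. The methods give a mixed genetic background, and no label says which embryos shared a litter. Col2-cre deletes floxed alleles in cells that express the type II collagen gene, among them chondrocytes and their progenitors. The study's reporter cross showed cre activity in hind limb perichondrium and primary ossification center as well as in growth plate cartilage. Its discussion also places Col2-cre in the sclerotome before those cells condense. Cells that the cre did not reach may keep both Foxc genes, and which cells of the rib cage these are was not measured here. Whole tissue was sequenced, so fewer tendon cells and less of an RNA per tendon cell cannot be told apart.

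Tendons join muscle to bone, and in the rib cage they attach the intercostal and other muscles to the ribs. Scleraxis (Scx) is a transcription factor of tendon progenitors, Mohawk (Mkx) is a homeobox factor needed for tendon fibre growth, and tenomodulin (Tnmd) is a membrane protein of differentiated tenocytes that depends on Scx. Egr1 and Egr2 are zinc finger factors that can raise tendon collagen genes, and they are also immediate early genes that many cell types switch on within minutes of a stimulus. Thrombospondins 2 and 4 (Thbs2, Thbs4) are matrix proteins of tendon and other connective tissue, and Fibin is a secreted protein. None of these genes is made by tendon cells alone.

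RefSeq start site windows of GRCm38.p6 were at hand for 5 of the 8 genes, namely Tnmd, Thbs4, Thbs2, Fibin and Egr2. The stretch before the Tnmd start is shown because Tnmd had one of the larger differences between the groups. It runs from chrX:133850758-133850979 on the plus strand and stops at the first annotated exon base. The Egr2 stretches are shown because Egr2 was above every control in 2 of the mutants. They run from chr10:67537316-67537565 and chr10:67537619-67537868 on the plus strand, each before a different RefSeq start, and both lie between annotated exons of the longer Egr2 transcripts. Capitals mark the CArG box, the site bound by serum response factor.
Tnmd: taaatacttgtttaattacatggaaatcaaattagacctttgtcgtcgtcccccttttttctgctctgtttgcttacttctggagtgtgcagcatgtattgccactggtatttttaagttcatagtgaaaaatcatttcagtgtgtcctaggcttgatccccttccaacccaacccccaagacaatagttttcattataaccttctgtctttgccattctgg
Egr2, first start: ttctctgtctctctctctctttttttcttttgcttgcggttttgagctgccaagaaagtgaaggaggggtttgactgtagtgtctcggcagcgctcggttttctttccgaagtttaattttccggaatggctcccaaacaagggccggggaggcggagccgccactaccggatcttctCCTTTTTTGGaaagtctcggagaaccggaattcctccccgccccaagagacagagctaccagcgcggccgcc
Egr2, second start: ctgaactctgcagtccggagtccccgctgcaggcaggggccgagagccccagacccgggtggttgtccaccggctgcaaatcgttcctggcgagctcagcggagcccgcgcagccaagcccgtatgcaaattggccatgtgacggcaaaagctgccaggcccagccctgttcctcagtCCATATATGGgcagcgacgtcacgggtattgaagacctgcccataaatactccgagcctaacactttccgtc

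Both CArG boxes of Egr2 begin 72 bases before their start. A CArG box was found in 4 of the 5 Egr2 windows, several of which overlap, and 1.47% of all 32817 windows of 250 bases before a start hold one. The E-box CANNTG, the kind of site that Scx binds, was searched on both strands and was found in 66.2% of all windows. Among the 9 windows of the 5 genes it was in 6, those of Thbs2 and Thbs4 and most of Egr2. It was not found in the Tnmd or Fibin window, of which 28 and 190 of the 250 bases lie in annotated exon. The forkhead letters GTAAACA were in 3.16% of all windows and the EGR letters GCGNGGGCG in 4.70%, and neither was in a window of the 5 genes. Other forms of forkhead or EGR site were not searched, so these windows may still hold such sites. Matches are descriptions of these letters in these windows and do not show binding.

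Library totals ran from 37853988 to 47794799 counts, each end of a read pair being counted on its own. The deletion was checked first. Foxc1 was at 23.1, 36.9 and 24.2 CPM (counts scaled to the TMM-adjusted size of the library) in the controls and at 3.56, 9.60 and 3.51 CPM in the mutants, values being given here and below in the order E420, E434, E435 and E423, E433, E440. Foxc2 was at 1.98, 4.83 and 3.22 CPM in controls and at 0.649, 1.14 and 0.737 CPM in mutants. Both targeted genes were lower in every mutant than in every control. The libraries were uneven in tissue content. The 13 chondrocyte genes summed to 25066 CPM in control E434 and 9295 CPM in mutant E433, against 1459 to 1523 CPM in the other controls and 493 to 508 CPM in the other mutants. E420 and E435 were close to each other (SD of the log2 ratio over genes 0.153), as were E423 and E440 (0.132), whereas the other 13 pairs ranged from 0.471 to 1.37. Neither close pair agreed within counting error, with a chi-square per gene of 5.42 and 2.27 on rounded expected counts. That cannot decide whether the libraries of a pair share tissue or RNA. The labels name separate embryos, so each library was kept as 1 sample.

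The tendon transcription factors and tenomodulin were lower in mutants. Scx, Mkx and Tnmd were each lower in all 3 mutant libraries than in all 3 controls, at 62.7%, 38.3% and 49.7% of the control mean. Groups that do not overlap in this direction were found for 8.21% of all genes. Thbs2, Thbs4 and Fibin had lower mutant means with overlapping groups, and Egr1 and Egr2 had higher mutant means with overlapping groups. In the edgeR quasi-likelihood test with Benjamini-Hochberg adjustment, 0 of the 8 genes were called at an adjusted p under 0.1 and a log2 fold change of 1 or more either way, a call that 0.0639% of all genes passed. At an unadjusted p under 0.05, 4 of the 8 passed (Scx, Mkx, Tnmd and Thbs2), all with lower mutant means, against 10.6% of all genes in either direction. DESeq2 called 2 of the 8 as lower, Mkx and Tnmd, against 0.557% of all genes that it tested.

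**Figure D1:**
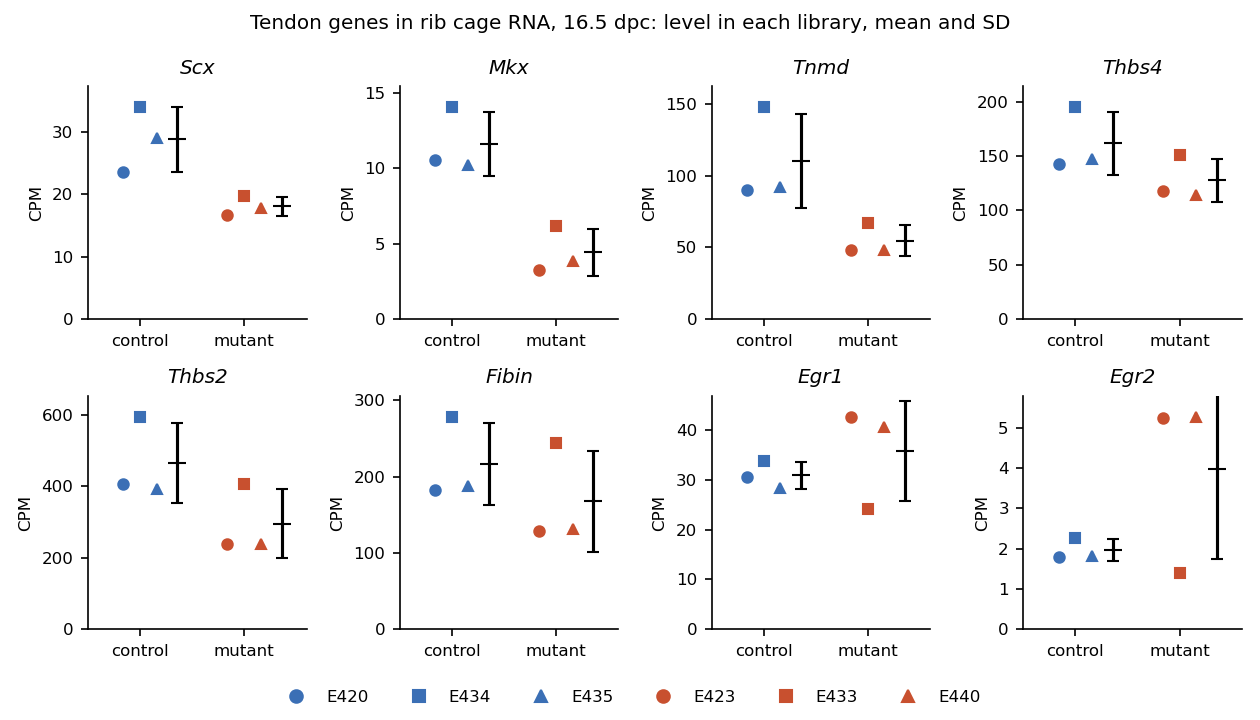
Level of each of the 8 tendon genes in CPM (vertical axes, from 0) in the 3 control libraries (blue) and the 3 mutant libraries (red), with the mean and SD of each group in black. The mutant points of Scx, Mkx and Tnmd all sit below the control points, whereas E433 (red square) stands apart from E423 and E440 in Fibin, Thbs2, Egr1 and Egr2.

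Scx was at 23.5, 33.9 and 28.9 CPM in controls. It was at 16.7, 19.7 and 17.7 CPM in mutants. The highest mutant stood below the lowest control. The means were 28.8 ± 5.21 CPM in controls and 18.03 ± 1.499 CPM in mutants (SD, n = 3 each), a log2 fold change of -0.67 ± 0.15 (SE, edgeR adjusted p = 0.305). DESeq2 gave -0.67 with an adjusted p of 0.0101, short of the fold limit. Scx passed the limit on p in DESeq2 and the limit on size in neither tool.

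Mkx had the lowest mutant share of the set. Its levels were 10.5, 14.1 and 10.2 CPM in controls and 3.29, 6.19 and 3.84 CPM in mutants, from 137 to 637 counts a library. Mutant E433 had the highest mutant level and still lay below every control. The means were 11.6 ± 2.13 and 4.44 ± 1.54 CPM (SD, n = 3 each), a log2 fold change of -1.38 ± 0.27 (SE, edgeR adjusted p = 0.244, DESeq2 adjusted p = 0.000106).

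Tnmd, the marker of differentiated tenocytes, was at 90.1, 148 and 92.2 CPM in controls and at 48.6, 67.2 and 48.3 CPM in mutants. Control E434 was the highest of the controls and mutant E433 the highest of the mutants. The means were 110 ± 32.7 and 54.7 ± 10.8 CPM (SD, n = 3 each), a log2 fold change of -1.01 ± 0.23 (SE, edgeR adjusted p = 0.325, DESeq2 adjusted p = 0.0028). Mkx and Tnmd stand in the study's own list of genes lower in mutants, which was drawn from these libraries, so their calls here are not independent evidence of that direction. An exact permutation test of each of Scx, Mkx and Tnmd over the 6 libraries gave p = 0.1, 2-sided, the smallest that 3 against 3 allows.

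The thrombospondins and Fibin shared a pattern across libraries. Thbs2 was at 406, 593 and 392 CPM in controls and at 239, 406 and 239 CPM in mutants. Mutant E433 thus reached the level of controls E420 and E435, and the groups overlapped. The log2 fold change was -0.65 ± 0.27 (SE, edgeR adjusted p = 0.465). Thbs4 was at 143, 195 and 147 CPM in controls and at 118, 151 and 114 CPM in mutants, with E433 above the lower controls. Its log2 fold change was -0.34 ± 0.16 (SE, edgeR adjusted p = 0.517). Fibin was at 183, 278 and 188 CPM in controls and at 128, 244 and 131 CPM in mutants, so E433 exceeded all but E434. Its log2 fold change was -0.37 ± 0.30 (SE, edgeR adjusted p = 0.696).

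In 6 of the 8 genes, all except Egr1 and Egr2, the highest mutant was E433. The highest of all 6 libraries was control E434 in the same number of genes. These are also the libraries with the most chondrocyte RNA in their groups. How many of all genes had E434 or E433 in such ranks was not counted, here or for the lists below. Setting each against the other, E433 had 58.0% of the Scx level of E434, 44.1% of its Mkx and 45.5% of its Tnmd. The mean of E423 and E440 against the mean of E420 and E435 was 65.7% for Scx, 34.4% for Mkx and 53.2% for Tnmd. The 3 genes were thus lower on the mutant side of both comparisons, the first of which is 1 embryo against 1. Neither comparison holds cartilage equal. The chondrocyte sum was 9295 CPM in E433 against 25066 CPM in E434. It was 493 to 508 CPM in E423 and E440 against 1459 to 1523 CPM in E420 and E435. For Thbs2 the corresponding shares of its own level were 68.4% and 60.0%, for Thbs4 77.3% and 80.1%, and for Fibin 87.7% and 69.9%.

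The immediate early members were split among the mutants. Egr1 was at 30.7, 33.7 and 28.3 CPM in controls, and at 42.6, 24.2 and 40.6 CPM in mutants. E423 and E440 stood above every control and E433 below every control. The log2 fold change was 0.21 ± 0.22 (SE, edgeR adjusted p = 0.757). Egr2, whose CArG boxes are printed above, was at 1.78, 2.27 and 1.81 CPM in controls and at 5.24, 1.39 and 5.27 CPM in mutants, from 60 to 243 counts a library. Again 2 mutants lay above and 1 below all controls. The log2 fold change was 1.02 ± 0.48 (SE, edgeR adjusted p = 0.516, DESeq2 adjusted p = 0.293). In E433 against E434 alone, Egr2 was at 61.3% and Egr1 at 71.8%, whereas the mean of E423 and E440 was 292% and 141% of that of E420 and E435.

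Removing mutant E433 raised the size of every difference. Without it, edgeR called 3 of the 8 genes, against 4.21% of all genes tested. Mkx was lower by a log2 fold change of -1.70 (adjusted p = 0.0152), Tnmd was lower by -1.18 (adjusted p = 0.0525) and Egr2 was higher by 1.43 (adjusted p = 0.0140). Fibin moved from -0.37 to -0.73 and Egr1 from 0.21 to 0.43 without this library. With E434 and E433 both left out, Mkx (-1.53) and Egr2 (1.55) were called, against 8.25% of all genes tested, but the libraries that remain form the close pairs, so their spread is small. Without control E434, Tnmd stood at -0.74 and Fibin at -0.14, and 0 of the 8 were called, against 17 of all 25978 genes tested.

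With the mean log2 CPM of the chondrocyte list as a covariate, edgeR called 1 of the 8 genes, against 0.963% of all genes. Mkx kept a log2 fold change of -1.20 ± 0.13 (SE, adjusted p = 0.0205). Tnmd was at -0.78 ± 0.07 (SE, adjusted p = 0.0143) and Thbs2 at -0.44 ± 0.07 (SE, adjusted p = 0.0484), both past the limit on p and short of the limit on size. Scx was at -0.57 (adjusted p = 0.0913), Thbs4 at -0.20 and Fibin at -0.14. The chondrocyte list is itself lower in mutants by a median log2 fold change of -1.28, so the covariate and the genotype share part of their variation.

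**Figure D2:**
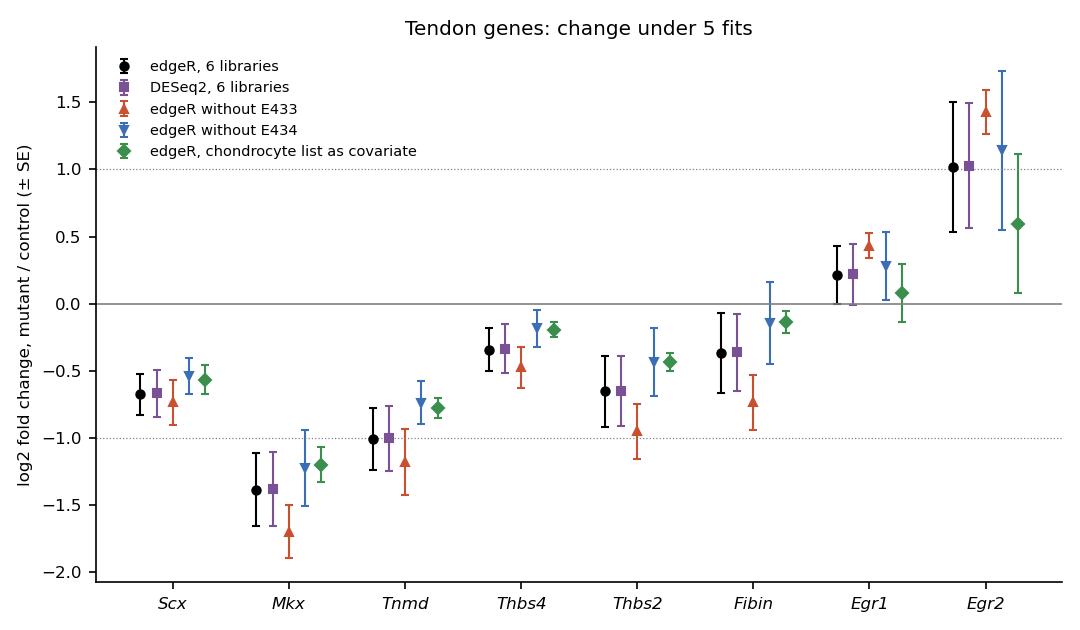
Log2 fold change of mutant over control (vertical axis) with its SE for the 8 tendon genes under 5 fits, dotted lines marking the limit of 1 either way. Scx, Mkx, Tnmd, Thbs4, Thbs2 and Fibin are below 0 in each fit, with Mkx between -1.20 and -1.70, and Egr1 and Egr2 are above 0 in each.

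In GRCm38 coordinates, Scx lies at chr15:76457452-76459458 on the plus strand, inside an intron of Bop1, which runs on the opposite strand. Strand was not used in counting, so reads from that Bop1 intron cannot be told apart from Scx reads, although the exons of the pair share 0 bases. Mkx lies at chr18:6934518-7004780 on the minus strand and shares 201 exon bases, 4.91% of its own, with AC148004.2, a gene on the same strand. Tnmd lies at chrX:133850980-133865577 on the plus strand. Thbs4 lies at chr13:92751590-92794818, Thbs2 at chr17:14665500-14694235 and Fibin at chr2:110360917-110363183, all on the minus strand. Egr1 lies at chr18:34859823-34864984 and Egr2 at chr10:67535475-67542188, both on the plus strand.

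Levels between genes were compared as RPKM (CPM per kilobase of exon). In controls the order was Fibin (95.4 ± 23.6 RPKM), Tnmd (81.3 ± 24.1), Thbs2 (66.2 ± 16.01), Thbs4 (49.1 ± 8.77), Scx (14.3 ± 2.60), Egr1 (6.89 ± 0.60), Mkx (2.83 ± 0.52) and Egr2 (0.576 ± 0.081), each as mean and SD of 3 libraries. Neighbours among the first 4 overlapped between libraries, although each stood above the next in all 3 controls, and those from Thbs4 downward did not overlap. In mutants Tnmd (40.4 ± 7.99 RPKM) came after Thbs2 (42.1 ± 13.7), with overlapping values, and Mkx (1.08 ± 0.38) came after Egr2 (1.17 ± 0.66), also overlapping. Scx (8.98 ± 0.75) and Egr1 (7.98 ± 2.25) overlapped in mutants, where Egr1 exceeded Scx in E423 and E440.

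Among 16567 genes with a mean of at least 1 CPM, the pattern closest to Mkx over the 6 libraries was that of Cfap74, with a root mean square difference of 0.110 in centred log2 CPM. Pax9 (0.133), St8sia1 (0.178), Hmgcll1 (0.190) and Pappa (0.198) followed. The pattern closest to Tnmd was that of Hhip (0.0639), followed by Kera (0.105), Kcnk1 (0.106), Foxp2 (0.119) and Clec11a (0.119). All 10 genes were lower in every mutant than in every control, which follows from their being chosen for likeness to Mkx or Tnmd.

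The tendon matrix list holds collagens, small leucine-rich proteoglycans and other proteins that tendon shares with other connective tissue. It had lower mutant means in 21 of 28 genes tested, against 48.8% of all genes. Its median log2 fold change was -0.47, against 0.01 over all genes. In 9 of the 28 every mutant was below every control, against the 8.21% of all genes given above. In 2, Tnxb (0.57) and Dcn (0.23), every mutant was above every control, against 6.81% of all genes, and both were named after their values were seen. edgeR called 0 of the 28, with 10 at an unadjusted p under 0.05 (10.6% of all genes), and DESeq2 called 3 as lower (0.557% of all genes that it tested).

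Kera, keratocan, a proteoglycan that binds collagen fibrils, was at 12.4, 19.3 and 12.5 CPM in controls and at 7.38, 7.98 and 6.46 CPM in mutants. Every mutant was below every control. The log2 fold change was -1.02 ± 0.21 (SE, edgeR adjusted p = 0.260), and DESeq2 called it. Col22a1, a collagen of the junction between muscle and tendon, was at 128, 149 and 125 CPM in controls and at 70.0, 41.3 and 66.3 CPM in mutants. E433 was the lowest mutant, unlike for Scx, Mkx, Tnmd, the thrombospondins and Fibin. Its log2 fold change was -1.18 ± 0.21 (SE, edgeR adjusted p = 0.201), and DESeq2 called it as well. Cilp2, a cartilage intermediate layer protein, was at 6.87, 15.4 and 6.39 CPM in controls and at 4.04, 3.11 and 3.53 CPM in mutants. Its log2 fold change was -1.42 ± 0.36 (SE, edgeR adjusted p = 0.358), and it was the third that DESeq2 called. Comp (-1.69 ± 1.44, SE) and Fmod (-1.38 ± 0.84, SE), both made by cartilage too, had large differences with overlapping groups. Comp ranged from 10.8 CPM in E423 to 390 CPM in E434. Control E434 was the highest library in 25 of the 28 genes and E433 the highest mutant in 25 of them. The share of all genes with these ranks was not counted.

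**Figure D3:**
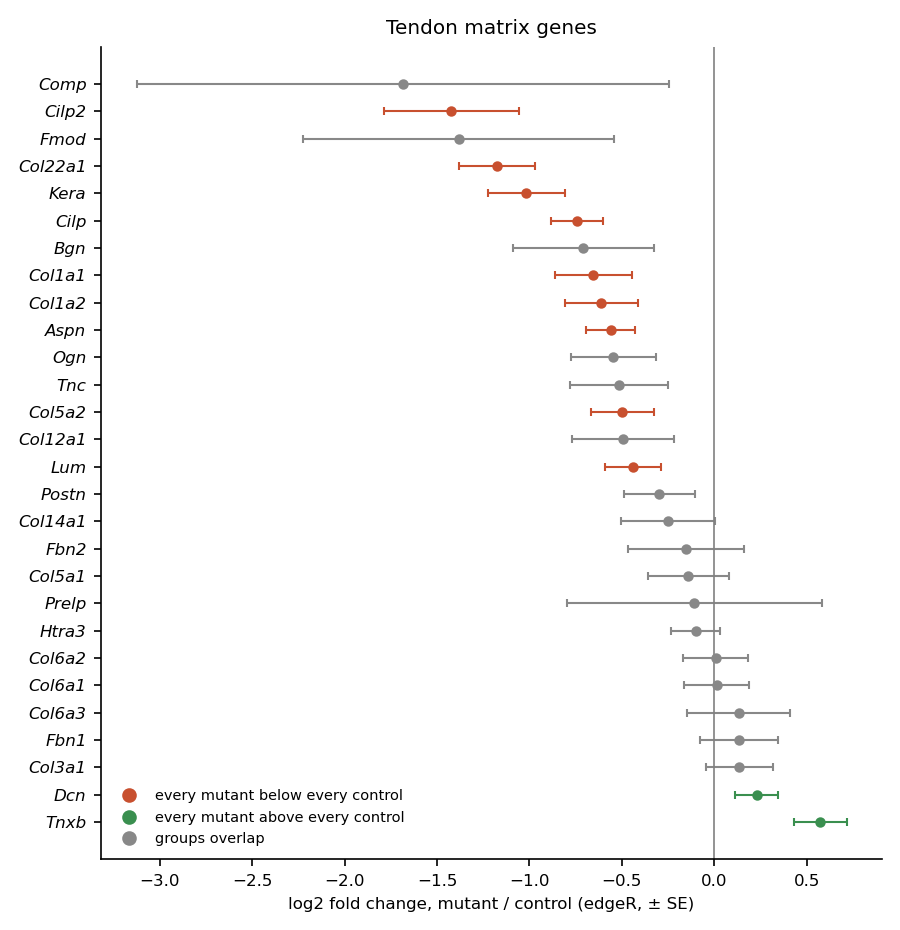
Log2 fold change of mutant over control (horizontal axis) with its SE for the 28 tendon matrix genes, coloured by whether the 3 mutants and 3 controls overlap. The widest errors belong to Comp, Fmod and Prelp, and the 9 genes with every mutant below every control include Kera, Col22a1 and Cilp2.

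The thrombospondin family, of which Comp is also a member, had lower mutant means in 5 of 5 genes, against 48.8% of all genes. Its median log2 fold change was -0.63, with 0 called by either tool, although DESeq2 gave Comp no adjusted p. Thbs1 was at 102, 298 and 95.3 CPM in controls and at 78.2, 163 and 78.1 CPM in mutants. Thbs3 was at 82.0, 134 and 84.9 CPM in controls and at 68.3, 120 and 69.5 CPM in mutants. In all 5 the highest library was E434 and the highest mutant E433, and the groups overlapped.

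Genes of the signals that act on tendon cells include the TGF-beta, FGF and GDF families. They had lower mutant means in 23 of 26 genes tested, against 48.8% of all genes. Their median log2 fold change was -0.31, and every mutant was below every control in 11, against 8.21% of all genes. edgeR called 0, with 9 at an unadjusted p under 0.05, against 10.6% of all genes. DESeq2 called 1, Fgf4, an FGF made in muscle near tendon, against 0.557% of all genes called as lower. Fgf4 was low, at 1.42, 1.01 and 1.505 CPM in controls and at 0.337, 0.835 and 0.347 CPM in mutants. Gdf5, a growth factor of joints and tendon, was at 1.30, 8.34 and 1.55 CPM in controls and at 0.649, 2.97 and 0.932 CPM in mutants, and the groups overlapped. Gdf7 was under 0.6 CPM and Fgf8 under 0.3 CPM in every library.

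The remaining Egr genes and the Nab corepressors, which bind Egr proteins and restrain them, did not share one direction. Egr3 was at 7.74, 4.21 and 7.48 CPM in controls and at 40.7, 4.802 and 37.6 CPM in mutants, so E423 and E440 stood above every control, as for Egr1 and Egr2, whereas E433 lay between control E434 and the other controls. Its log2 fold change was 2.095 ± 0.738 (SE, edgeR adjusted p = 0.428). Nab1 was at 54.8 to 74.7 CPM in controls and 59.9 to 70.5 CPM in mutants. Nab2 was at 34.0, 30.1 and 33.4 CPM in controls and at 27.5, 24.8 and 25.0 CPM in mutants, lower in each mutant, with a log2 fold change of -0.33 ± 0.09 (SE, edgeR adjusted p = 0.370). Egr4 had counts near 0 throughout, at most 0.173 CPM, and no adjusted p in DESeq2. edgeR and DESeq2 each called 0 of the 6, a call that 0.0639% of all genes passed in edgeR. In edgeR 2 of the 6 had an unadjusted p under 0.05, against 10.6% of all genes. Of these, Egr3 had a higher mutant mean and Nab2 a lower one.

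The other immediate early genes, which like Egr1 and Egr2 respond quickly to stimuli and to handling of tissue, had a median log2 fold change of 0.28 over 24 genes tested. The mutant mean was lower in 7 of them, against 48.8% of all genes. Klf4 was at 176, 78.8 and 174 CPM in controls and at 292, 117 and 294 CPM in mutants, and Junb at 22.8, 15.4 and 21.99 CPM in controls and at 42.0, 12.9 and 43.0 CPM in mutants. Ier5 (0.59) and Arc (0.72) were the others with the largest log2 fold changes. E433 was the lowest mutant in 21 of the 24. Every mutant was above every control in 3 genes, Ier3, Dusp1 and Btg2, and below in 2, Klf2 and Socs3, all 5 named after their values were seen. The shares of all genes were 6.81% and 8.21%, so the second count is at the background and the first near it. edgeR and DESeq2 each called 0 of the 24, with 6 at an unadjusted p under 0.05 in edgeR, against 10.6% of all genes.

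Some markers of other cell types were, like the Egr genes, highest in E423 and E440. The 9 keratinocyte genes, which mark skin, summed to 5863, 20.8 and 6642 CPM in controls and to 28558, 3424 and 28650 CPM in mutants. All 9 had higher mutant means, 1 with groups apart as higher, against 6.81% of all genes (Flg, named after its values were seen, at 0.102, 0 and 0.021 CPM in controls and 546, 0.116 and 481 CPM in mutants). The 6 adipocyte genes summed to 144 to 160 CPM in controls and 218 to 661 CPM in mutants, with 5 apart as higher (6.81% of all genes) and E433 the lowest mutant, although still above every control. The 15 muscle genes summed to 15636, 25587 and 15955 CPM in controls and to 35126, 20099 and 34240 CPM in mutants. Of the 15, 1 was apart as higher and 2 as lower, near the shares of all genes (6.81% and 8.21%). The mutant mean was lower in 4 of the 15 (Pax7, Myod1, Myog and Myf5), against 48.8% of all genes. In these 4, E423 and E440 lay below every control, unlike in the muscle sum. The part of skin, fat or muscle RNA in the Egr levels was not tested. With the muscle list as a covariate Egr1 stood at -0.16 ± 0.25 and Egr2 at 0.12 ± 0.66 (SE). The muscle sum was itself higher in E423 and E440 than in every control, so this covariate and the genotype share part of their variation.

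**Figure D4:**
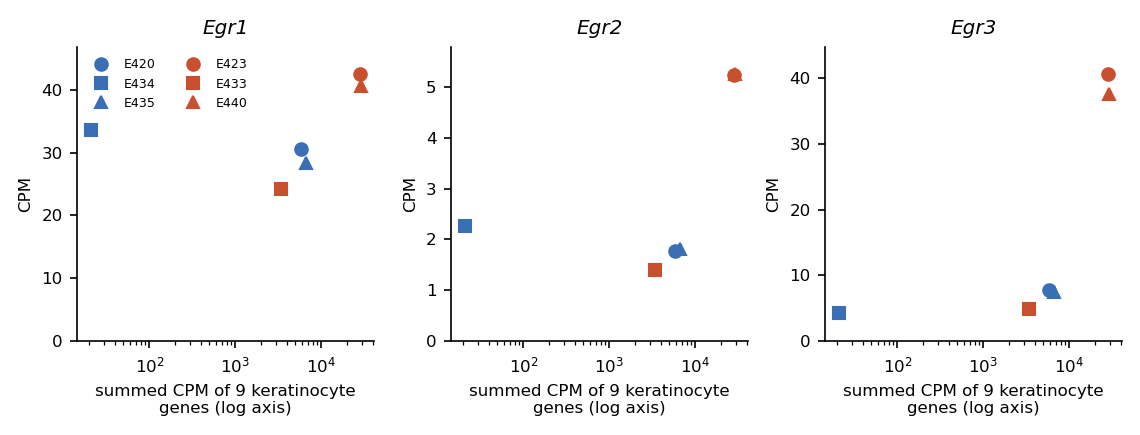
Level of Egr1, Egr2 and Egr3 in CPM (vertical axes, from 0) against the summed CPM of 9 keratinocyte genes (log axis) in each library. Mutants E423 and E440, which nearly coincide, are highest on both axes, and mutant E433 lies near the controls.

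Beside the lower tendon genes, other connective tissue and skeletal lists did not all move the same way. The 10 fibroblast genes summed to 955 to 997 CPM in controls and 1032 to 1204 CPM in mutants. Every mutant was above every control in 6 of the 10, against 6.81% of all genes, and in 0 every mutant was below. The mutant mean was lower in the other 4. Every mutant was below every control in 9 of the 9 osteoblast genes, against 8.21% of all genes, and they summed to 1653 to 1722 CPM in controls and 349 to 851 CPM in mutants. E433 was the lowest mutant in 8 of these 9, and in 2 of the 8 tendon genes (Egr1 and Egr2). The 13 chondrocyte genes had lower mutant means in 13 of 13, against 48.8% of all genes. In 0 of them were the groups apart, against 8.21% of all genes apart as lower. The 8 Schwann cell genes tested summed to 140 to 148 CPM in controls and 166 to 184 CPM in mutants, with 3 apart as higher, against 6.81% of all genes. The 5 hepatocyte genes summed to at most 45.5 CPM except in mutant E433, where they reached 580 CPM. The 5 endothelial genes summed to 347 to 460 CPM in controls and 331 to 427 CPM in mutants, and the 4 macrophage genes to 121 to 134 and 99.5 to 102 CPM. The part of these cell types in the tendon gene levels was not tested, and the covariates of the fits above share variation with the genotype.

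**Figure D5:**
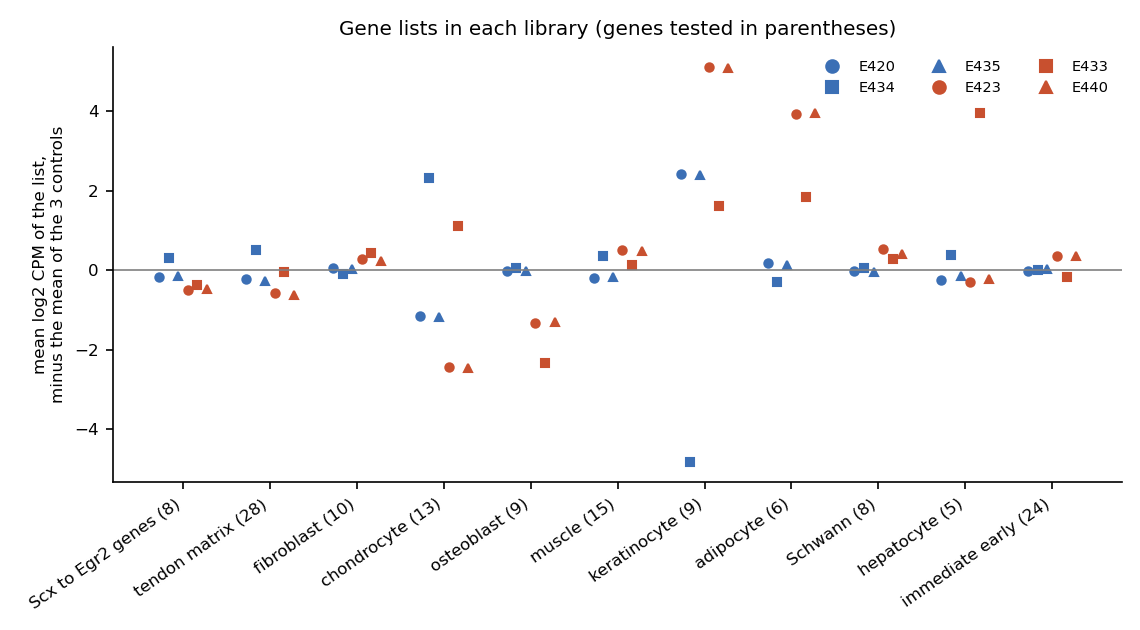
Mean log2 CPM of each gene list in each library, less the mean of the 3 controls (vertical axis), with controls in blue and mutants in red. The 3 mutants lie below the 3 controls for the 8 tendon genes and the osteoblast list. E434 and E433 each stand apart from the rest of their own group in the chondrocyte and keratinocyte lists. In the keratinocyte list E433 lies nearest to controls E420 and E435, and in the hepatocyte list it stands apart from all other libraries.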

How the data were processed

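The authors aligned paired reads to GRCm38 with HISAT2 2.1.0 and counted them per gene with featureCounts 1.6.0 on GENCODE exons. The deposited count table holds raw counts without normalization, with both ends of a fragment entered separately and without regard to strand. Expected counts per gene, also deposited, came from STAR 2.7.6 and RSEM 1.2.31, which were rounded to whole numbers here. Exon lengths deposited with the counts (another column) gave RPKM. Tables of the authors' own comparisons (fold changes and adjusted p-values) and 12 columns of per-sample values in them were not used. Symbols came from an older GENCODE release on the same build.

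Mutants were compared with controls by the quasi-likelihood test of edgeR 4.0.16 in R 4.3.3, with TMM scaling, over genes whose counts in the 6 libraries summed to 10 or more. The limits, an adjusted p under 0.1 and a log2 fold change of 1 either way, follow 2 of the criteria in the study's methods. Its p-value limit and its requirement that both pipelines share a call were not applied, and its results text states a stricter false discovery rate. Log2 CPM used a prior count of 2. Alternatives were DESeq2 1.42.0 with its Wald test or its size factors in edgeR, a robust fit, other filters and limits, the expected counts, leaving out libraries, and the chondrocyte or muscle list as a covariate. The main edgeR fit and the DESeq2 fit were first tested on simulated data, drawn without uneven tissue content. The other alternatives were not tested in this way. Embryo numbers do not pair the groups. No source used here says how the libraries were batched, and p-values measure only the spread between these embryos. At this depth 3 counts equal 0.0628 to 0.0793 CPM before TMM scaling.

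The genes followed and the lists around them were chosen with earlier results of these data known. Named genes were all the tendon genes followed, the targeted genes, Kera, the thrombospondin, Egr and Nab genes, the genes that edgeR called in each other tendon list or, as none was called, the 4 with the largest log2 fold changes either way, the cell type markers where a sum is given, and the 5 genes closest in pattern to Mkx and to Tnmd.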

Additional observations from a re-analysis of the deposited data

How the results depend on the processing

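The 6 tendon genes with lower mutant means kept that direction in all 15 alternatives, and so did Egr2 with a higher mean. Egr1 turned to -0.16 with the muscle list as a covariate. Of the 8 tendon genes, 0 were called in the fit of all libraries, 2 by DESeq2, 2 without E434 and E433 together, 1 with the chondrocyte covariate and 0 to 3 on leaving out 1 library, the 3 without E433. The 17 genes called over all genes became 477 with DESeq2, 35 with the robust fit, 37 without a count filter, 10 with the expected counts, 2066 without E434 and E433 together, 256 with the chondrocyte covariate, 2 with the muscle covariate and 0 at an adjusted p under 0.05 in edgeR, where 2820 genes had an unadjusted p under 0.05. Leaving out 1 library gave 0 to 1087, the latter without E433. DESeq2 called 3 tendon matrix genes and 1 gene of the tendon signals, where edgeR called 0 of each. The cause of these moves was not tested. No paired analysis was possible because the labels give no replicate numbers (those used here follow accession order) and do not say which embryos were littermates. With 3 embryos a group and uneven cartilage, skin and muscle RNA, differences near the spread between libraries were not detectable.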

Other observations

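Of the 10 fibroblast genes, 6 had higher mutant means, with every mutant above every control (6.81% of all genes), and 4 had lower means with overlapping groups (Pdgfra, Osr1, Tcf4 and Tcf7l2). edgeR called 0 of the 10, with 5 at an unadjusted p under 0.05 (10.6% of all genes). Pi16, a marker of adventitial fibroblasts, was at 19.1, 19.9 and 20.6 CPM in controls and at 36.2, 35.3 and 34.7 CPM in mutants, a log2 fold change of 0.83 ± 0.08 (SE, edgeR adjusted p = 0.0775). It passed the limit on p and not that on size. Clec3b, tetranectin, was at 89.2, 74.5 and 85.7 CPM in controls and at 133, 120 and 126 CPM in mutants (0.60 ± 0.09, SE, edgeR adjusted p = 0.155). Twist2, a factor of dermal progenitors, was at 7.28, 3.42 and 7.03 CPM in controls and at 14.4, 12.9 and 13.2 CPM in mutants (1.19 ± 0.29, SE, edgeR adjusted p = 0.343). It was the 1 fibroblast gene of 10 that DESeq2 called, against 355 called as higher among all 21896 genes that DESeq2 tested. Unlike the keratinocyte genes, Pi16, Clec3b and Twist2 were at similar levels in mutant E433 and in the other mutants. Pdgfra, a broad fibroblast receptor, was at 179, 220 and 164 CPM in controls and at 129, 183 and 123 CPM in mutants, with overlapping groups.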
